A study of Mus musculus with 12 samples.

Results

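The promoters of Pabpc4 and Racgap1 were followed in fetal and adult mouse haematopoietic stem cells (HSCs) because each had more adult than fetal contacts while its transcript was higher in fetal cells. They were picked by name from the deposited list of significant contacts, as every contact whose gene name, less any number that marks an alternative promoter, was one of these. The rule gave 38 of 89545 contacts and 2 of 3781 promoter entries, an entry being a captured fragment within a batch. The list holds only fragments with a significant contact. A gene or promoter is therefore called captured below where it has an entry, and captured fragments without a listed contact are not seen. Both entries belonged to the first batch, and each listed 19 distal bins of 2 kb. Contact calls, counts and FPKM were what the genes were chosen on, so they are given as descriptions with no test.

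The assay was Capture-C, in which chromatin is cut with DpnII, ligated, and enriched for chosen promoters with oligonucleotides before sequencing, so that reads show which distant DNA lay near a promoter. HSCs of B6129SF1 mice were sorted as Lin-Sca1+cKit+CD135- cells from fetal liver at embryonic day 14.5 or from bone marrow at 6 to 8 weeks of age, with no other treatment or allele named. This surface profile also takes in multipotent progenitors, and the labels do not say whether animals were pooled. Each population had 4 libraries, 2 in each of 2 batches, but the table gives 1 value per population and batch. No value below has an error between libraries, and intervals cover counting error only. The 4 samples of the HPC7 line were not used here.

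Pabpc4 encodes a cytoplasmic poly(A)-binding protein. Such proteins coat the poly(A) tails of messenger RNAs, bind the initiation factor eIF4G, and tune translation and mRNA decay. Racgap1 encodes the GTPase-activating subunit of centralspindlin, the complex it forms with the kinesin Kif23. Centralspindlin bundles microtubules of the spindle midzone and recruits the RhoA activator Ect2, so that the contractile ring can form and the cell can divide. HSCs of the fetal liver expand by division, whereas most adult HSCs are quiescent. A promoter's contacts can include enhancers, other promoters and DNA that lies near it without a regulatory role.

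The promoter windows are shown to give the sequence around a start site of each gene. They are not the captured fragments, which are given in mm9 with the contacts. The windows come from RefSeq (GRCm38.p6), run from 250 bases before a start site to 30 after it, and are written in the direction of transcription. The Pabpc4 window is chr4:123282661-123282940 on the plus strand, inside the span of the RefSeq gene, which lists an earlier start as well. The Racgap1 window is chr15:99651627-99651906 on the minus strand. Capitals mark matches on either strand to the motifs named in the next paragraph, apart from the general E-box.
Pabpc4: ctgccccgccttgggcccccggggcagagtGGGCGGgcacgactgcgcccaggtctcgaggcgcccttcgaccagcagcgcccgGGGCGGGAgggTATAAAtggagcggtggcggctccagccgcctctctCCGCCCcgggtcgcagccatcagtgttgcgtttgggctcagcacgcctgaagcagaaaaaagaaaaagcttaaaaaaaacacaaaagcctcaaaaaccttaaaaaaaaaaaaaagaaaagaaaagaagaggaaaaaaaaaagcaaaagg
Racgap1: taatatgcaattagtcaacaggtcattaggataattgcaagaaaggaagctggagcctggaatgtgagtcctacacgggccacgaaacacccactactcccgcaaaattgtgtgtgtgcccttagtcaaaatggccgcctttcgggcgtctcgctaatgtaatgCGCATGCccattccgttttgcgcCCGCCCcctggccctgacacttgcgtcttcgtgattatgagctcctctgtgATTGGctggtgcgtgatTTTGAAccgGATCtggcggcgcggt

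Both windows were rich in CpG dinucleotides, with 19 in Pabpc4 and 18 in Racgap1 against a median of 6 over 32851 RefSeq promoter windows. Pabpc4 held GGGCGG, the SP/KLF box, at 3 places (34.7% of all windows hold it; positions count from the start site, negative before it), of which the copy at position -166 overlapped GGCGGGA, part of an E2F site (10.8%). It also held TATAAA, the TATA box, at position -155 (13.1%). Racgap1 held CCAAT, the NF-Y box, at position -12 on the opposite strand (36.1%) and TTTGAA, the cell cycle homology region, at position 6 (17.2%). Both of these boxes are known from promoters of mitotic genes. Racgap1 also held GCATGCG, part of an NRF1 site (3.42%), another GGGCGG, a general E-box CANNTG (70.1%), and GATC, the DpnII site (45.6%), the last at position 15. Neither window held the ETS motif CCGGAAG (8.45%), the cAMP-response core TGACG (19.9%), the MYC-type E-box CACGTG (6.79%), the YY1 motif AAGATGG (5.61%), or the GATA motif, searched as AGATAA (10.7%) and as TGATAA (8.69%). A match is a string of letters, not a shown binding site.

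Expression was higher in fetal cells for both genes in the authors' deposited FPKM values, which have 1 value per population. Pabpc4 stood at 73.2 FPKM in fetal HSCs and 34.9 FPKM in adult HSCs, a ratio of 2.10. Racgap1 stood at 28.8 FPKM in fetal HSCs and 15.4 FPKM in adult HSCs, a ratio of 1.87. The authors' deposited table marks both as differentially expressed. Of 1952 first-batch entries, 48.0% had the higher FPKM in fetal cells.

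Marker genes of other cells were also higher in the fetal values. The stem and progenitor markers were present in both populations, with 10 of 12 among the captured promoters, between 7.76 and 36.3 FPKM in fetal and between 8.94 and 62.5 FPKM in adult cells. Of 8 macrophage marker names 6 genes were captured, and their FPKM summed to 41.1 in fetal and 2.70 in adult cells, with the defining Marco at 7.99 and 0.00996. Of 6 erythroid markers 5 were captured, summing to 53.9 and 8.96. Hepatocyte and lymphoid markers were not analysed here, since 0 of 6 of each had a promoter entry with a listed contact. The part of other cells in the fetal values of Pabpc4 and Racgap1 was not tested.

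The Pabpc4 fragment (chromosome 4, 122959228 to 122960996, 1768 bp) had 3 fetal and 19 adult calls, a contact being called where its score is above 0. The log2 ratio of fetal to adult calls, with 1 added to each, was -2.32. Coordinates of contacts are those of the deposited table, whose build is mm9 per the submitters' processing notes. In the first batch 42.1% of entries had more adult than fetal calls and 48.1% had more fetal ones. An adult excess was found in 41.0% of entries with higher fetal FPKM, and in 44.5% of the 308 that were also marked as differentially expressed. A log2 ratio of -1 or lower was found in 4.20% of the 1406 entries with at least 10 calls, and in 3.32% of those with higher fetal FPKM. In the opposite direction, 6.47% had a ratio of 1 or higher. Pabpc4 was 1 of the 2 lowest of the 1406.

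The Racgap1 fragment (chromosome 15, 99482072 to 99482588, 516 bp) had 5 fetal and 15 adult calls, a log2 ratio of -1.42, and 11 of the 1406 entries were as low or lower. Among entries of both batches with at least 20 calls, Pabpc4 ranked 1 by adult excess and Racgap1 ranked 5. The next in that order, Sbds, had 6 fetal and 17 adult calls (log2 ratio -1.36), with 12.8 (fetal) and 15.5 FPKM (adult). The values just inside and just outside the top 5 were therefore close.

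**Figure D1:**
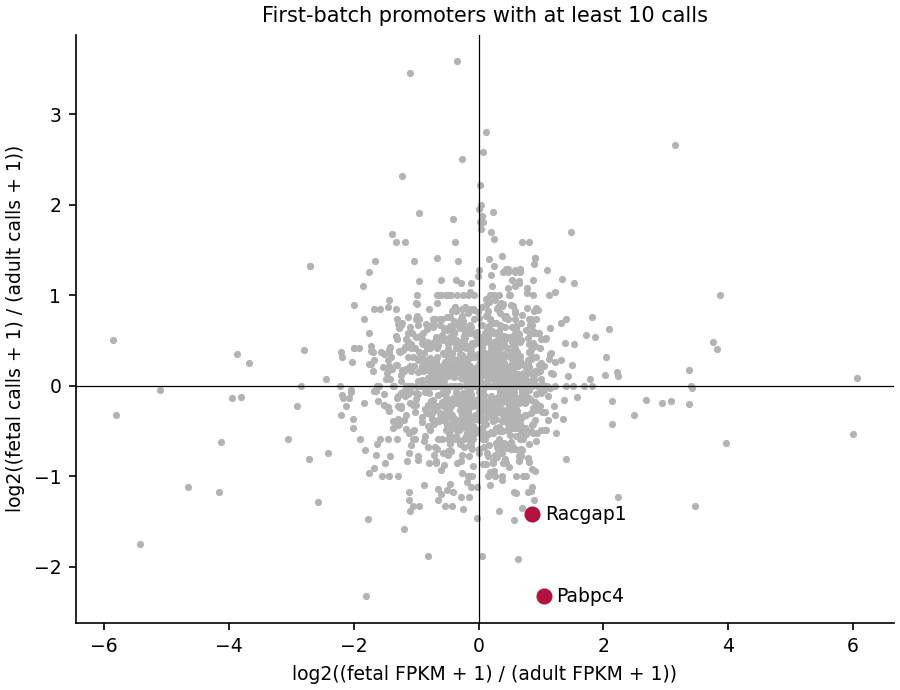
First-batch promoter entries with at least 10 calls, by the log2 ratio of fetal to adult FPKM (horizontal) and of fetal to adult calls (vertical), 1 added to each value. Pabpc4 (1.05 and -2.32) and Racgap1 (0.86 and -1.42) lie to the lower right of the main cloud of grey points.

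The genes nearest to Pabpc4 by both ratios, among 692 first-batch entries with at least 10 calls and higher fetal FPKM, were Sf3a2, Racgap1 and Il18bp. Sf3a2, a splicing factor subunit, had 3 fetal and 14 adult calls with 67.5 (fetal) and 43.3 FPKM (adult). Il18bp, which encodes a secreted inhibitor of interleukin-18, had 4 and 13 calls with 2.61 and 1.43 FPKM. Nearest to Racgap1 were Rab3il1 (4 and 11 calls), Gtf2h4, a subunit of the general transcription factor TFIIH (8 and 22 calls), and Dohh, an enzyme that modifies the translation factor eIF5A (16 and 37 calls). Their likeness is the distance over the pair of ratios, 0.59 for Sf3a2 and 0.15, 0.17 and 0.26 for the Racgap1 neighbours, in 1 value per population.

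Pabpc4 made no fetal call on its own chromosome. All 3 of its fetal calls lay on chromosome 14, in neighbouring bins at 90294001 to 90296001, 90296001 to 90298001 and 90298001 to 90300001. These 3 bins were called in adult cells as well. Another chromosome 14 bin, at 90320001 to 90322001, was called in adult cells alone, with 3 fetal and 11 adult counts. The first-batch share of listed contacts that join different chromosomes was 1.31%.

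The bin at 90298001 to 90300001 held 8464 fetal and 10271 adult counts, with an infinite score in both populations. Of all counts listed for Pabpc4 it took 97.8% in fetal cells (exact 95% interval 97.5 to 98.1) and 97.0% in adult cells (96.7 to 97.3). The bins next to it held 52 fetal and 84 adult counts, then 38 and 50. Among the 654 first-batch contacts between chromosomes it had the 8th highest count, and 47 of these contacts (7.19%), from 41 promoters, reached 1000 counts.

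Neither of the bins with the most counts carried a promoter or enhancer mark, and both were marked as open chromatin (ATAC) in both populations. The nearest captured promoters on either side were Elf1 and Dach1, 10378 and 8247 kb away. In the GRCm38 gene order 99 genes lie between those genes. One of them is Gm5088, a transcribed pseudogene of 3224 bp that carries Pabpc4l as a synonym. It is named here for that synonym alone, which gives neither its likeness to Pabpc4 nor its distance from the bin. Where Gm5088 lies in mm9 was not determined here, the sequences were not compared, and the part of reads from similar sequence in these counts was not tested.

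**Figure D2:**
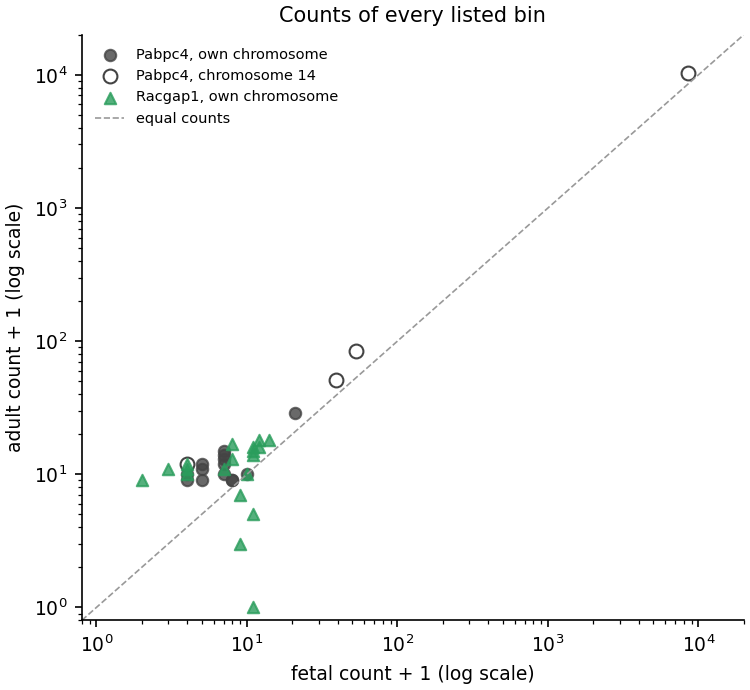
Fetal (horizontal) and adult (vertical) count plus 1 of every listed bin of Pabpc4 and Racgap1, both axes on a log scale, with the dashed line at equal counts. The chromosome 14 bin of 8464 fetal and 10271 adult counts stands far above all others, while bins on the promoter's own chromosome hold at most 28 counts.

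On chromosome 4 the Pabpc4 promoter had 15 bins, all called in adult cells and none in fetal cells. Of 1010 first-batch entries with at least 10 adult calls on their own chromosome, 0.0990% (1 entry, Pabpc4) had no fetal call there. In the opposite direction the share was 0.196% (2 of 1023, Sfrp1 and Srgn). The 15 bins held 94 fetal and 169 adult counts in all. The fetal share was 35.7% (exact 95% interval 29.9 to 41.9), against 52.2% over all first-batch contacts within a chromosome under 1000 counts. Bins called in adult cells alone have a low fetal share by construction, so this comparison shows no more than the calls do.

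Fetal counts were lower but not missing at these bins. They ranged from 3 to 20 with a median of 6, and adult counts from 8 to 28 with a median of 10, so the ranges overlapped. At 1 of the 15 bins, 120.9 kb from the promoter, the fetal and adult counts were equal at 9. Over first-batch adult-only contacts, the fetal count was equal or higher at 4.96%. The median log2 ratio of fetal to adult counts was -0.89 at Pabpc4, and -0.74 over 15137 other adult-only contacts at the same range of distances.

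Several bins had the counts that sufficed for fetal calls elsewhere. Between 60 and 200 kb, first-batch calls had a median of 13 counts in fetal and 12 in adult cells, with lowest values of 5 and 4. Beyond 80 kb the 14 Pabpc4 bins held 3 to 9 fetal counts. Between 20 and 60 kb the lowest count of a fetal call was 14, and the Pabpc4 bin 30.9 kb from the promoter held 20 fetal and 28 adult counts with an adult score of 1.54. How the authors' caller set the level expected for each promoter is not given in the sources used here.

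The chromosome 4 bins lay on both sides of the promoter, 8 at lower and 7 at higher coordinates, from 411 kb before to 189 kb after it. Their median distance was 139 kb, and that of other adult-only first-batch contacts in this range 149 kb. The highest adult score was 4.36, at 122794001 to 122796001, 165 kb from the promoter, with 6 fetal and 14 adult counts. Next came 123088001 to 123090001, at 129 kb on the other side, with a score of 3.90 and 6 fetal and 13 adult counts. Of the 15 adult scores 10 lay less than 1 unit above the lowest score of the batch, 1.30, compared with 68.6% of other adult-only contacts in this range.

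**Figure D3:**
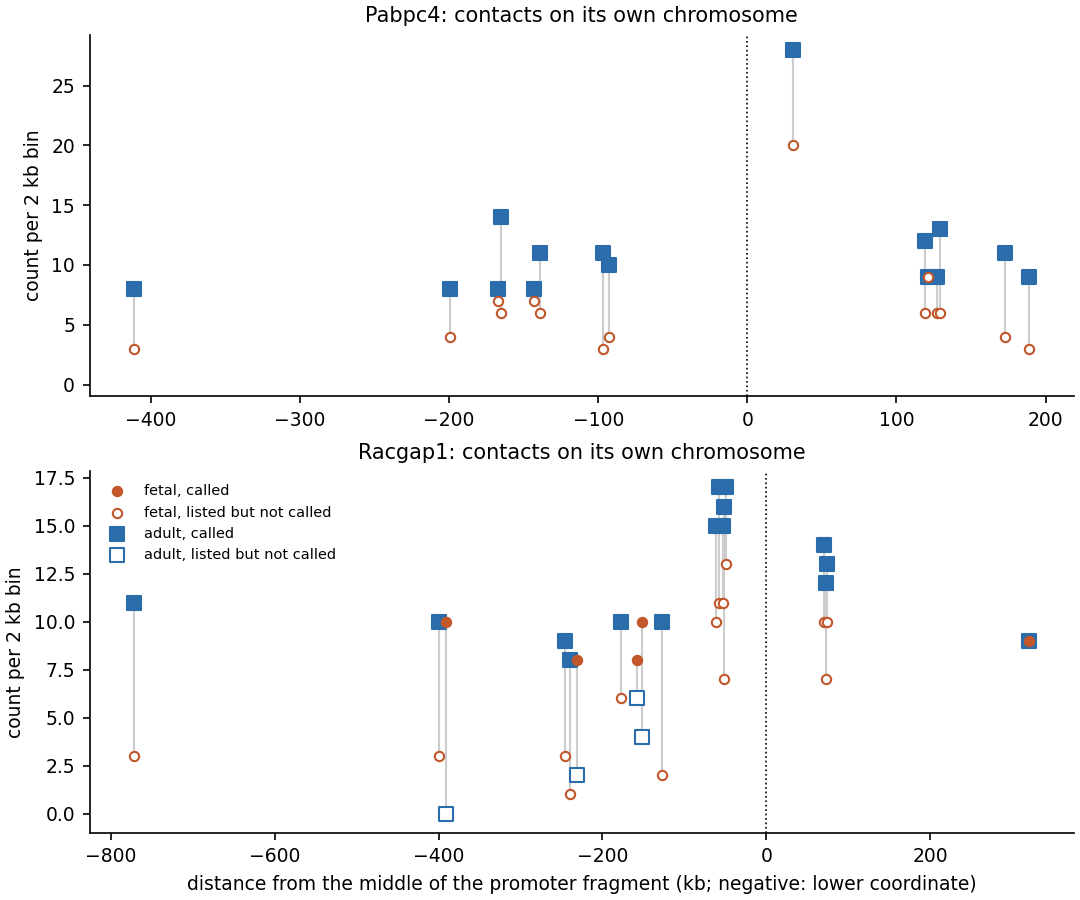
Count of each listed bin on the promoter's own chromosome against its distance from the promoter (kb), for Pabpc4 (top) and Racgap1 (bottom). Circles are fetal and squares adult, filled where the contact was called, and a grey line joins the values of a bin. At Pabpc4 all 15 squares are filled and no circle is. At Racgap1 5 circles and 15 squares are filled.

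Racgap1 had calls in both populations, all on chromosome 15. Of its 19 bins, 14 were called in adult cells alone, 4 in fetal cells alone and 1 in both. The corresponding shares over first-batch contacts were 35.4%, 38.9% and 25.7%. In all, its bins held 142 fetal and 198 adult counts, a fetal share of 41.8% (36.5 to 47.2). As 14 of the 19 bins are adult-only calls, a low fetal share is built in and shows no more than the calls do.

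The adult-only bins of Racgap1 formed a near and a far group. Within 80 kb lay 8 of the 14, 5 at lower coordinates (49.3 to 61.3 kb away) and 3 at higher ones (70.7 to 74.7 kb). They held 7 to 13 fetal and 12 to 17 adult counts, with scores from 1.30 to 1.97, all less than 1 unit above the lowest score of the batch. The other 6 lay between 127 and 771 kb away, all at lower coordinates, which is the direction in which Racgap1 is transcribed. They held 1 to 6 fetal and 8 to 11 adult counts, with scores from 1.67 to 3.41. Lower fetal counts are built into adult-only calls, so nothing is read from the gap between these ranges.

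The highest adult score belonged to the farthest bin, at 98710001 to 98712001, with 3 fetal and 11 adult counts. The bin at 99082001 to 99084001 followed, 399 kb away, with 3 and 10 counts and a score of 3.13. The bin at 99304001 to 99306001 held 6 and 10 counts (score 2.50). The bin at 99236001 to 99238001 held 3 and 9 (score 2.18).

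Fetal calls of Racgap1 were fewer and lay between 151 and 391 kb from the promoter. The bin at 99090001 to 99092001, 391 kb away, held 10 fetal and 0 adult counts, with a fetal score of 3.20. It lay on the same side of the promoter as the adult-only bin 399 kb away. The bin at 99250001 to 99252001 held 8 fetal and 2 adult counts (score 1.68), that at 99324001 to 99326001 held 8 and 6 (1.51), and that at 99330001 to 99332001 held 10 and 4 (2.48). The bin called in both, at 99802001 to 99804001 and 321 kb away on the other side, held 9 counts in each, with scores of 2.57 in fetal and 2.35 in adult cells, and ranked 4 by adult score.

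The median distance was 231 kb for the 5 fetal and 74.7 kb for the 15 adult calls of Racgap1. That order did not hold at a score 1 unit higher, where the medians were 321 kb for 3 fetal and 360.0 kb for 4 adult calls. The median log2 ratio of counts at the 14 adult-only bins was -0.68, and -0.81 over 15992 other adult-only contacts in the same outer range of distances. Within that range the median distance was 73.7 kb for the 14 bins and 169 kb for the others, so the distances were not alike. At 0 of the 14 was the fetal count as high as the adult one, compared with 4.31% of those others. Of the 14 scores 11 lay less than 1 unit above the lowest, compared with 68.7% of the others.

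The call excess was smaller at stricter scores. With the lowest accepted score raised by 1 to 2.30, Pabpc4 had 3 fetal and 8 adult calls (log2 ratio -1.17) and Racgap1 3 and 4 (-0.32). All 3 of these fetal calls of Pabpc4 lay on chromosome 14, and its ratio and place include those bins. On chromosome 4 it had 5 of the 8 adult calls and no fetal call. Among 1215 first-batch entries with at least 5 calls at that score, 77 were as low as Pabpc4 or lower and 447 as low as Racgap1 or lower. The 5 chromosome 4 bins of Pabpc4 that passed held 4 to 6 fetal and 11 to 14 adult counts. They were kept by their adult score and had no fetal call, so higher adult counts are built in. When called bins up to 5 kb apart were merged, Pabpc4 had 1 fetal and 11 adult contacts, and Racgap1 had 4 and 8.

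**Figure D4:**
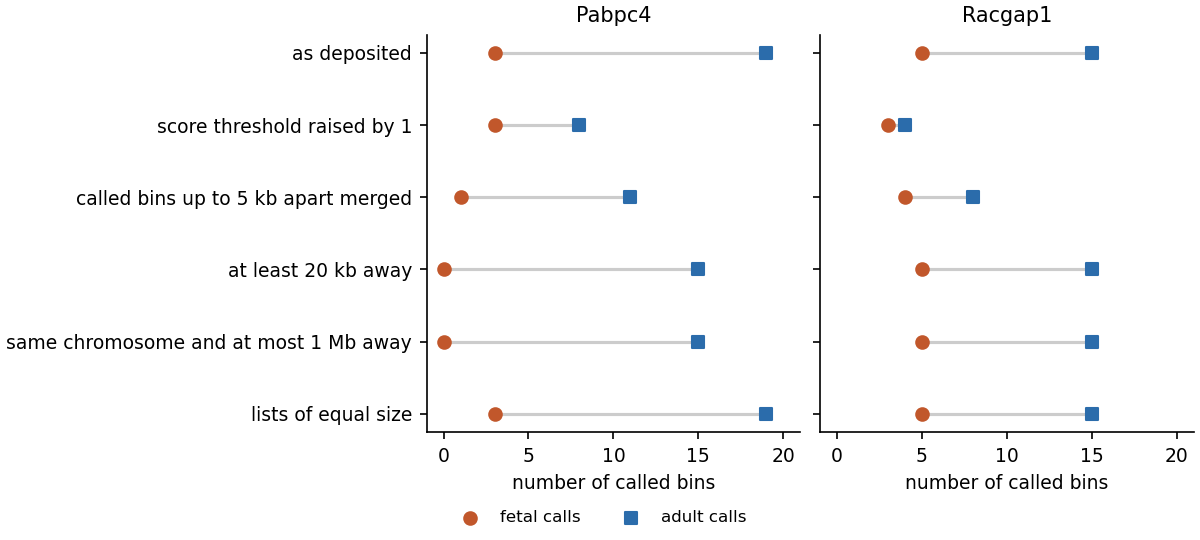
Number of called bins of Pabpc4 (left) and Racgap1 (right) in fetal (circles) and adult cells (squares) under each way of counting. Squares lie to the right under every setting, by 15 calls to 0 at Pabpc4 within chromosome 4 and by 4 to 3 at Racgap1 at the stricter score.

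The marks of the distal bins, which the choice of genes did not use, were mostly alike in the populations. At Pabpc4, 2 of 15 chromosome 4 bins were active promoters, 2 bivalent promoters and 2 active enhancers, each in both populations. Over 26375 other adult calls of the batch in this range, 17.5% were active promoters (17.1 to 18.0), 0.747% bivalent promoters (0.647 to 0.858) and 13.1% active enhancers (12.7 to 13.5). The bivalent bins were neighbours, at 122792001 to 122796001, and count as a single place. Open chromatin in adult cells covered 7 of 15, against 53.8% (53.2 to 54.4).

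At Racgap1, 6 of the 15 adult calls met active promoters, all of them active in fetal cells too, against 17.5% of 27238 other adult calls in this range (17.0 to 17.9). They included the farthest bin, the bins at 399 and 177 kb, a neighbouring pair at 72.7 and 74.7 kb, and the bin called in both populations. Open chromatin in adult cells covered 9 of the 15, against 53.6% of the others (53.0 to 54.2). No adult call met an active enhancer, against 12.8% of the others. The single active enhancer bin, 231 kb away, was called in fetal cells alone although it was marked in both. A bin 61.3 kb away was a bivalent promoter in adult cells only, and one 53.3 kb away a poised enhancer in fetal cells only, and both were called in adult cells. The other adult calls were matched by outer range alone, not by distance within it. Bins of a promoter are not replicates, and no test was made of these shares.

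Open chromatin differed between the populations at few of these bins. At Racgap1 4 bins called in 1 population were open in only 1, and at 3 of them the bin was open where it was called. At Pabpc4 this held at 1 of 3. The share over 4754 such first-batch contacts was 52.1% (50.6 to 53.5). Of the 16 adult-only bins of Pabpc4, chromosome 14 included, 7 had no mark of any kind in either population, as had 4 of the 14 adult-only bins of Racgap1. Over 17654 other first-batch adult-only contacts the share was 40.8% (40.1 to 41.5).

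Neighbouring promoters gave a second view of the Racgap1 region. Captured within 1 Mb were 12 other entries, and 15 of the 19 Racgap1 bins were also listed for 7 of them. In the first batch Smarcd1 had 19 fetal and 21 adult calls, Ddx23 had 44 and 55, and Slc11a2 had 8 and 9. All 3 had more adult calls and higher fetal FPKM, against 42.1% and 48.0% of all first-batch entries, each share taken alone. Counts were higher in fetal cells at Smarcd1 (319 fetal and 314 adult) and Ddx23 (1202 and 1149), and lower at Slc11a2 (74 and 96). In the second batch, captured and called apart, 3 of 9 entries had more adult and 6 more fetal calls, against 38.1% and 50.1% of its 1829 entries. FPKM was higher in fetal cells at 7 of these 9, against 45.9%. Tuba1a, an alpha-tubulin gene, had 9 fetal and 19 adult calls with 22.9 (fetal) and 7.60 FPKM (adult). Spats2 had 21 and 10 calls, Nckap5l 34 and 22, and Lima1, which encodes an actin cross-linking protein, 54 and 39.

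Smarcd1, a subunit of the SWI/SNF chromatin remodelling complex, has its fragment 50.5 kb from that of Racgap1 and was captured in the same libraries. It listed 8 bins of Racgap1, of which 3 were adult-only, 2 fetal-only and 3 called in both for Smarcd1. For Racgap1, 7 of these 8 were adult-only and 1 was called in both. At 99304001 to 99306001, an active promoter bin, Smarcd1 held 15 fetal and 7 adult counts and was fetal-only, whereas Racgap1 held 6 and 10 and was adult-only. At 99420001 to 99422001 both promoters were adult-only, with 7 and 20 counts for Smarcd1 and 10 and 15 for Racgap1. At 99424001 to 99426001 Smarcd1 had 18 and 14 counts and Racgap1 11 and 17. As 7 of the 8 bins are adult-only calls of Racgap1, a higher adult count is built into the Racgap1 values and not into those of Smarcd1, so no difference between the promoters is read from these counts.

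**Figure D5:**
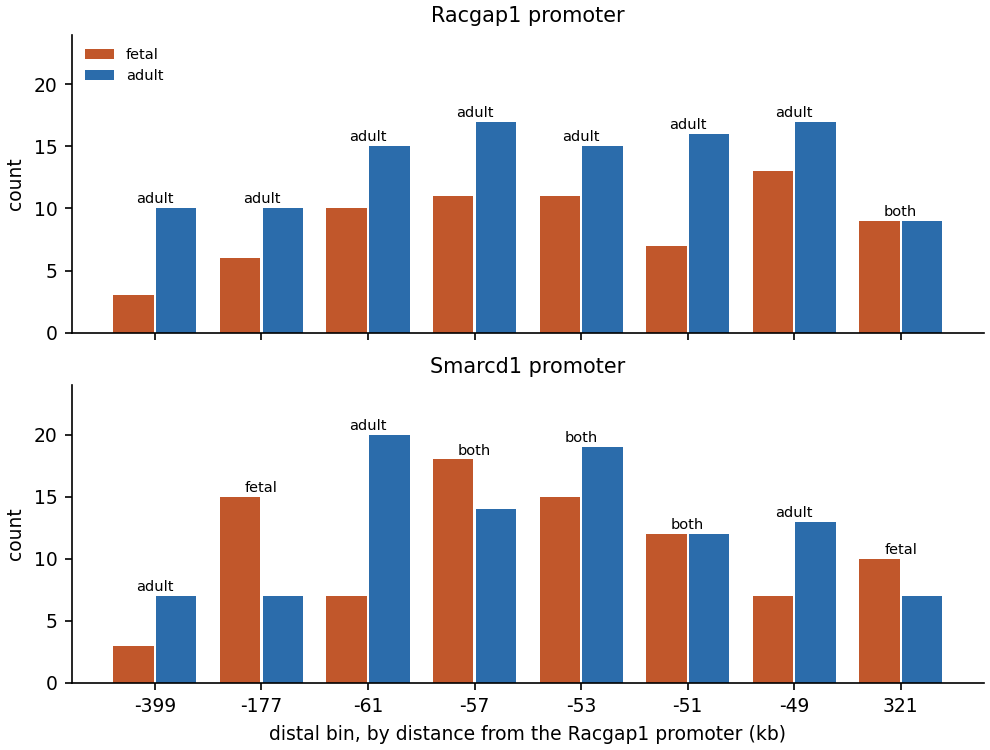
Fetal and adult counts at the 8 bins listed for both Racgap1 (top) and Smarcd1 (bottom), by distance from the Racgap1 promoter (kb). Words above the bars name the population in which the contact was called. Adult bars are the taller at 7 of 8 bins for Racgap1, and at 4 of 8 for Smarcd1.

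In the second batch Lima1 listed the 3 bins at 99552001 to 99558001, which were adult-only for Racgap1, as called in both populations. Lima1 was fetal-only at 2 other bins that were adult-only for Racgap1. Nckap5l listed 5 Racgap1 bins, 3 of them fetal-only and 2 called in both. Spats2 had the calls of Racgap1 at both bins they shared, adult-only at 99082001 to 99084001 (11 fetal and 22 adult counts) and fetal-only at 99090001 to 99092001 (26 and 17). The farthest bin of Racgap1, at 98710001 to 98712001, was called in both populations for Prkag1, Tuba1a and Tuba1b. No contact of any captured promoter was listed with a bin holding the Racgap1 or the Pabpc4 fragment, and no bin of either gene held a captured fragment.

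The Pabpc4 region was sparser. Mycbp, which encodes a MYC-binding protein, was the single other entry within 1 Mb, 622 kb away, with 2 fetal and 3 adult calls and 3.62 and 1.75 FPKM. None of the 19 Pabpc4 bins was listed for another promoter, so no second viewpoint of these bins was to be had.

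Other genes of the same pathways had calls in both directions. Of 35 poly(A) tail and cap-binding factors 7 were captured. In the first batch 3 of their 5 entries had more adult and 2 more fetal calls, against 42.1% and 48.1% of all entries. The median log2 ratio was -0.65 against 0.0 over all entries. In the second batch 0 of 3 had more adult and 3 more fetal calls, against 38.1% and 50.1% of all entries. Unlike at Pabpc4, FPKM was higher in fetal cells at only 1 of the 5 first-batch entries, against 48.0% of all. In the second batch it was so at 2 of 3, against 45.9%. The alternative entries of Eif4a2, an RNA helicase of translation initiation, went apart, with 7 fetal and 5 adult calls at one and 6 and 10 at another. Eif4a1 had 8 and 5, and Btg1, which recruits deadenylases, 17 and 14. Pabpn1, the nuclear poly(A)-binding protein, had 0 and 3 calls with 88.7 and 75.2 FPKM, a name chosen after its values were seen.

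Of 43 genes of cytokinesis, the spindle midzone and mitosis 19 were captured. In the first batch 2 of 7 entries had more adult and 4 more fetal calls, against 42.1% and 48.1% of all entries. In the second batch 6 of 14 had more adult and 7 more fetal calls, against 38.1% and 50.1%. FPKM was higher in fetal cells at 6 of 7 and 14 of 14 entries, against 48.0% and 45.9% of all entries. The median log2 ratios of calls were 0.19 and 0.04, against 0.0 and 0.03. Tpx2, a spindle assembly factor, had 13 fetal and 7 adult calls, an entry of the septin gene Sept2 23 and 18, another 10 and 12, and Birc5, the survivin subunit of the chromosomal passenger complex, 20 and 23. Kif23, the partner of Racgap1, was not analysed here. Ect2, which centralspindlin recruits, had 0 fetal and 4 adult calls (log2 ratio -2.32) with 5.84 and 1.54 FPKM. It was singled out after its values were seen and rests on 4 calls of the second batch.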

How the data were processed

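Capture-C libraries of fetal and adult HSCs were analysed through 1 table that the authors deposited. Per the submitters' processing notes, Trim Galore 0.41, Bowtie2 2.2.2 and the build mm9 were used; the caller is named LiMACC, and read filters and the treatment of duplicates are not given in the sources used here. The authors deposited whole-number counts per contact, pooled over the 2 libraries of a population and batch; whether they are sums is not stated. The authors deposited a score per contact, read here as −log10 of a p-value from its lowest values, and 0 where a contact was not called. FPKM values and marks of 0 or 1 per bin were also deposited by the authors, without a stated method.

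The first batch lists 1312829 fetal and 1098957 adult counts, which are not library depths. Calls, counts, distances (between the middles of fragment and bin) and marks were tabulated with Python 3.11.15 and pandas 2.3.3, after tests of the functions on simulated data. Shares carry exact Clopper-Pearson 95% intervals from scipy 1.17.1. With no values per library, no count model was fitted and no p-value is given. Ratios are log2 after adding 1. Alternatives were a score 1 unit higher, merging of bins within 5 kb, limits of 20 kb and 1 Mb, lists of equal size, pseudocounts of 0.5 and 0.1, and scaling by batch totals. Named bins are all fetal calls and the 5 highest adult scores per gene; named genes are the 3 most alike, those within 1 Mb, and the 2 extremes per pathway list. The members and lists were chosen with earlier results of these data known.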

Additional observations from a re-analysis of the deposited data

How the results depend on the processing

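The direction of the call ratio was kept under all 6 alternatives for both genes. It ranged between -4.00 and -1.17 for Pabpc4 and between -1.49 and -0.32 for Racgap1. Most alternatives could hardly change it. The distance limits, lists of equal size and the other pseudocount left the 5 fetal and 15 adult calls of Racgap1 as they were. Lists of equal size and the pseudocount left the 3 and 19 calls of Pabpc4. The genes were chosen for this direction, so its being kept is no separate evidence. The log2 ratio of counts at Pabpc4, -0.29 as deposited, rests on the chromosome 14 bin. It was -0.74 without that bin, -0.84 at least 20 kb away on chromosome 4, -0.89 at adult-only bins, and -0.55 or -0.42 after scaling by the totals of all first-batch contacts or of those under 1000 counts within a chromosome. At Racgap1 it was -0.48 as deposited, -0.73 or -0.60 after the same scalings and -0.86 at adult-only bins, and it turned to 1.51 at the 4 fetal-only bins, which follows from how those bins are defined. The adult minus fetal median distance of Racgap1 turned from -157 to 39.3 kb at the higher score, where 3 fetal and 4 adult calls were left. The share of adult calls of Racgap1 with open chromatin, 60%, was 100.0% at that score (4 of 4). That of Pabpc4, here with the chromosome 14 bins included, went from 47.4% (9 of 19) to 50.0% (4 of 8). At the higher score 62.1% of 13616 other first-batch adult calls were open. Other pseudocounts moved the log2 ratios of FPKM from 1.05 to at most 1.07 at Pabpc4 and from 0.86 to at most 0.90 at Racgap1. A distance difference for Pabpc4 could not be had, as no fetal call lay on chromosome 4. Leaving out single libraries was not possible with pooled values. No paired analysis was possible because the table pools the libraries of a population. Counts of 3 to 20 per bin limit what can be seen: the interval of a single bin's fetal share, such as 11.9 to 54.3% at the Pabpc4 bin with the highest chromosome 4 score, is wide.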

Other observations

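In the first batch, 302 entries had a fetal call on another chromosome, and at 26 of them all fetal calls were of that kind. Of these 26, 13 had adult calls on their own chromosome, the most being 15 at Pabpc4, followed by Trmt112 with 7 and Mrpl48 with 4. In adult cells 14 of 219 such entries had all their calls on other chromosomes, and 5 of the 14 had fetal calls on their own. With contacts on the own chromosome alone, Pabpc4 had the lowest log2 ratio of calls (-4.00) of 1193 first-batch entries with at least 15 such calls, followed by Sbds (3 fetal and 16 adult calls) and Sf3a2 (3 and 14), while Racgap1 was 8th. The floor of 15 is the number of such calls at Pabpc4 itself. Both genes were chosen on their calls, so these places are no separate evidence. These counts were made after the values had been seen, and no cause was tested.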
